A study of Mus musculus with 8 samples.

Results

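The Barhl, Emx, En, Gbx and Vax homeobox genes form 5 pairs of paralogs, 10 genes of the 21887 protein-coding genes in the RefSeq table. The members are a named list, Barhl1, Barhl2, Emx1, Emx2, En1, En2, Gbx1, Gbx2, Vax1 and Vax2, and all 10 were found in the table. For each gene, every H2AK119ub peak that touched the gene span with 20 kb on either side (its window) was taken, and the 2 paralogs of each pair were set side by side. H2AK119ub, histone H2A with a single ubiquitin on a lysine of its C-terminal tail, was mapped by chromatin immunoprecipitation and sequencing in epidermal progenitors from the back skin of newborn mice (postnatal day 0), sorted as EpCAM-positive, Sca1-positive cells with high α6-integrin. The series held 8 libraries. A single H2AK119ub library came from Ring1a/b 2KO cells (Ring1a-/- Ring1b-/-), 2 from Eed cKO cells (labelled Eed-/-) and 2 from Control cells, with 1 input per genotype. The sources used here do not give the Cre line behind the conditional knockout, the alleles of the controls or the number of animals per library. Peak lists of Eed cKO and control were analysed, 1 per genotype. Ring1a/b 2KO was not analysed here.

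Homeobox genes encode DNA-binding proteins that assign regional identity in the embryo. Emx1 and Emx2 act in the cerebral cortex, En1 and En2 at the midbrain-hindbrain border, Gbx2 on the hindbrain side of that border, Vax1 and Vax2 in the optic stalk and ventral eye, and the Barhl genes in sets of neurons. In cell types that do not use them, such genes commonly lie in Polycomb domains. Polycomb repressive complex 1 (PRC1), with Ring1a or Ring1b as its ligase, places H2AK119ub, and Polycomb repressive complex 2 (PRC2), which needs Eed, methylates H3K27. En1 is also known for a role in skin, in the ventral ectoderm of the limb and in a dermal fibroblast lineage.

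In Eed cKO cells 8 of the 10 genes had an H2AK119ub peak in their window, against 14.3% of all protein-coding genes. In control cells 10 of 10 had one, against 21.2% of all genes. The genes without an Eed cKO peak were Vax1 and Vax2, the 2 members of 1 pair. Of all genes with a control peak in the window, 55.1% also had an Eed cKO peak. The windows held 13 Eed cKO peaks with a median width of 11.1 kb and 13 control peaks with a median width of 22.2 kb, against medians of 5.17 kb over the whole Eed cKO list and 4.33 kb over the whole control list. The chromatin came from many cells, so a peak that is absent because fewer cells carried the mark and a peak that is absent because each cell carried less of it cannot be told apart.

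The whole Eed cKO list held 2541 peaks and the control list 4621. The lists give positions only, with no score, and the read depth behind them is unknown. A peak that is not listed can therefore lie below a call threshold. With 1 list per genotype no value here has a replicate error and no test of the genotypes was possible. Peak positions hold no expression level, so they cannot test the labelled cell type. The spans of Krt5, Krt14, Trp63, Itga6 and Epcam, which mark basal keratinocytes, held 0 peaks in either list, and so did the span of Eed. With 20 kb on either side, Krt5 had 1 control peak and the others none in either list.

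**Figure D1:**
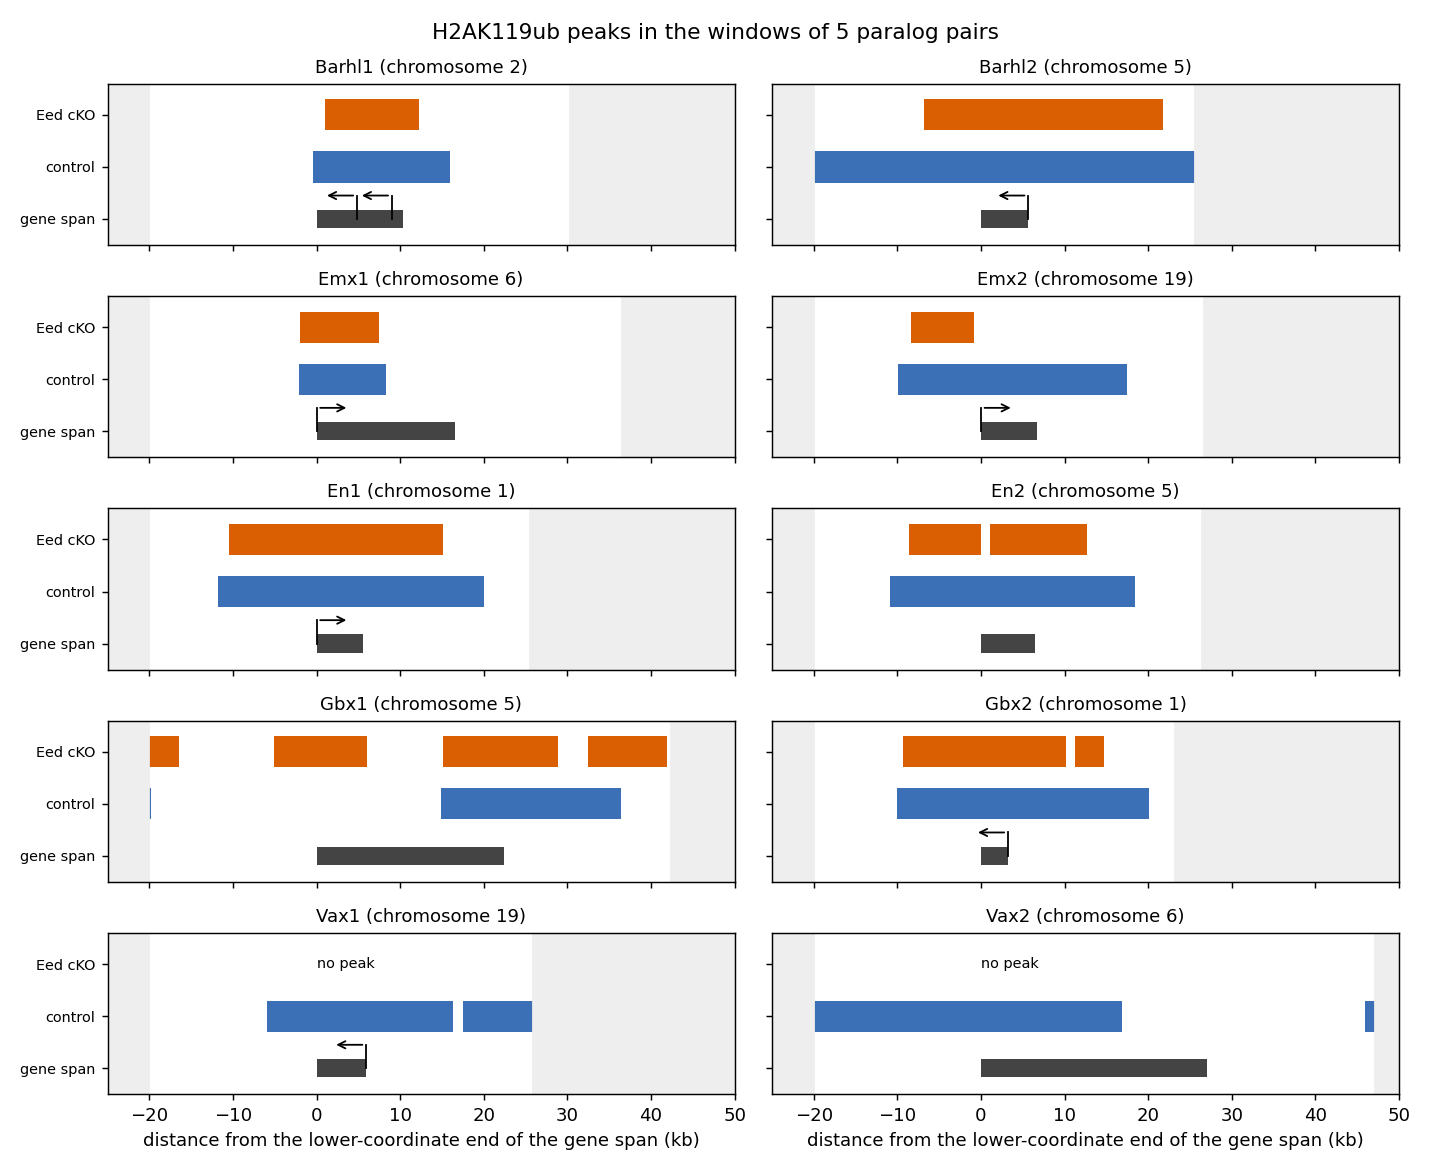
H2AK119ub peaks of Eed cKO (orange, upper track) and control (blue, middle track) in the window of each gene, with the gene span in dark grey and the gene start as an arrow where RefSeq's promoter table gives it. The horizontal axis is the distance in kb from the end of the span with the lower coordinate, and grey shading lies outside the window. Orange blocks lie within blue blocks at 7 genes, Gbx1 has orange blocks outside blue ones, and Vax1 and Vax2 have none.

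Both genes of the engrailed pair had wide peaks in both lists. En1, which specifies midbrain and cerebellum, lies on chromosome 1 (120602487 to 120607991). Its Eed cKO peak was 25.6 kb wide (120592048 to 120617646), against 31.9 kb in control (120590641 to 120622569). The Eed cKO peak lay inside the control peak and reached 1.41 kb less far on the lower-coordinate side and 4.92 kb less far on the other. It spanned the whole gene in both lists.

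En2, which acts with En1 in the cerebellum, lies on chromosome 5 (28165696 to 28172190). It had 2 Eed cKO peaks, of 8.67 kb and 11.5 kb, against a single control peak of 29.3 kb (28154789 to 28184089). The Eed cKO peaks left a gap of 1.10 kb inside the gene span, near its lower-coordinate end. In Eed cKO 83.1% of the En2 span was covered, against 100% in control. Of the control-covered bases in the windows, 80.2% were also covered in Eed cKO at En1 and 68.9% at En2. In covered length, En1 exceeded En2 by 5.42 kb in Eed cKO and by 2.63 kb in control. The difference in Eed cKO fell to 0.108 kb with the gene span alone or with 5 kb flanks. The difference in control turned to -0.99 kb with the gene span alone or with 5 kb flanks. Both windows were then wholly covered in control, so this value is only the difference in span length. With 50 kb flanks the control difference turned to -29.4 kb, where further control peaks beside En2 entered.

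At the Gbx pair the paralogs differed in kind. Gbx2, which sets the hindbrain side of the midbrain-hindbrain border, lies on chromosome 1 (89927962 to 89931176). It had Eed cKO peaks of 19.5 kb and 3.56 kb inside a control peak of 30.2 kb (89917887 to 89948121), separated by 0.997 kb. Its whole span was covered in both lists. The 19.5 kb Eed cKO peak and the control peak also lay over LOC102637806, a predicted gene 0.898 kb away.

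Gbx1, which acts in the ventral forebrain and in dorsal spinal cord neurons, lies on chromosome 5 (24504426 to 24526848). It had 4 Eed cKO peaks in its window, of 7.42, 11.1, 13.8 and 9.40 kb, against 2 control peaks of 2.31 and 21.6 kb. The 11.1 kb Eed cKO peak (24499357 to 24510445) met no control peak. It covered 6.02 kb at the lower-coordinate end of the Gbx1 span and lay 8.84 kb from the nearest control peak. Summed over the window, 37.8 kb was covered in Eed cKO, against 21.7 kb in control, or 1.74 times as much. Gbx1 was the 1 member of 10 with more bases covered in Eed cKO than in control, which held for 24.6% of all genes with a control peak. All Eed cKO-covered bases that lay outside control peaks in the 10 windows were at Gbx1.

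The Gbx1 peaks also lie at other genes. The lower 2 Eed cKO peaks and the small control peak touched Agap3 or the 2000 bp beside it, and the upper 2 Eed cKO peaks and the 21.6 kb control peak touched Asb10 or the 2000 bp beside it. The 9.40 kb Eed cKO peak also touched Iqca1l. These positions cannot assign a peak to Gbx1 rather than to its neighbours. Gbx1 exceeded Gbx2 by 14.8 kb in Eed cKO, while in control its difference from Gbx2 was -8.49 kb. The control difference turned to 4.34 kb with the gene span alone and was -0.656 kb with 5 kb flanks. The share of control-covered bases also covered in Eed cKO was 82.0% at Gbx1 and 76.3% at Gbx2. This order turned with the gene span alone (-2.84 percentage points) and with 5 kb flanks (-1.71 points). In both settings the Gbx2 window lay wholly within 1 peak of each list, so Gbx1 could not have the higher share.

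The Barhl pair differed in the width of the domain. Barhl1, which acts in cerebellar granule neurons and inner ear hair cells, lies on chromosome 2 (28907680 to 28917984). Its Eed cKO peak was 11.3 kb wide (28908686 to 28919947), against 16.5 kb in control (28907201 to 28923684). The control peak reached the 2000 bp beside the neighbouring Ddx31, and the Eed cKO peak did not. RefSeq lists 2 starts of Barhl1, and each lay under a peak in both lists.

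Barhl2, which acts in retinal and spinal cord neurons, lies on chromosome 5 (106452523 to 106458166). Its Eed cKO peak was 28.7 kb wide (106445699 to 106474352), against 50.0 kb in control (106431290 to 106481256). The control peak was the widest of the 13 and covered the whole 45.6 kb window. The Eed cKO peak stopped 14.4 kb and 6.90 kb inside its edges. Barhl1 minus Barhl2 was -17.4 kb in Eed cKO and -29.2 kb in control. Both turned with the gene span alone, to 3.65 kb in Eed cKO and 4.66 kb in control, and the control difference was 0.14 kb with 5 kb flanks. Shares of control-covered bases also covered in Eed cKO were 68.3% at Barhl1 and 62.8% at Barhl2. This order turned with the gene span alone (-9.76 points) and with 5 kb flanks (-28.6 points), where the Barhl2 window lies wholly within its Eed cKO peak.

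The Emx pair had the widest difference within a pair in what was still covered. Emx1, a factor of the dorsal telencephalon, lies on chromosome 6 (85187931 to 85204463). Its Eed cKO peak was 9.41 kb wide (85185995 to 85195409), against 10.4 kb in control (85185859 to 85196276), and its edges lay 0.136 kb and 0.867 kb inside those of the control peak. Both peaks covered the gene start. The Eed cKO peak covered 45.2% of the span, against 50.5% in control.

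Emx2, which acts in the cortex and the urogenital system, lies on chromosome 19 (59458690 to 59465357). Its Eed cKO peak was 7.56 kb wide (59450302 to 59457857), against 27.4 kb in control (59448769 to 59476197). The control peak covered the whole gene. The Eed cKO peak ended 0.832 kb before the Emx2 start, so 0% of the span was covered. The lower-coordinate edges of the peaks lay 1.53 kb apart and the other edges 18.3 kb apart. The remaining Eed cKO peak lay wholly inside the span of Emx2os, an antisense RNA gene (59425104 to 59458635).

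Of the control-covered bases, 90.4% at Emx1 and 27.5% at Emx2 were also covered in Eed cKO, a difference of 62.8 percentage points. Emx1 was higher in this share by 89.6 points with the gene span alone and by 65.4 points with 5 kb flanks. The other alternatives of window and list in which it was computed left the difference unchanged at 62.8 points. In covered length, Emx1 minus Emx2 was 1.86 kb in Eed cKO and -17.0 kb in control. The control difference turned to 1.68 kb with the gene span alone and was -6.25 kb with 5 kb flanks.

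The Vax pair had no Eed cKO peak. Vax1, which acts in the optic stalk and ventral forebrain, lies on chromosome 19 (59164480 to 59170397). It had 0 Eed cKO peaks, against control peaks of 22.2 kb (59158573 to 59180763) and 17.7 kb (59181944 to 59199642). Eed cKO peaks came no nearer to the gene than 280 kb. Vax2, which marks the ventral retina, lies on chromosome 6 (83711239 to 83738313). It had 0 Eed cKO peaks, against control peaks of 40.2 kb (83687934 to 83728114) and 7.72 kb (83757187 to 83764911). Eed cKO peaks came no nearer than 621 kb.

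In control 30.6 kb of the Vax1 window and 38.0 kb of the Vax2 window were covered. Of the other members, Barhl2 and En1 had more control cover than Vax1, and Barhl2 alone had more than Vax2. The narrower Vax2 peak overlapped the window by 1.13 kb only and lay at Ankrd53 and Atp6v1b1. The wider one covered the whole of Vax2os, an RNA gene of 19.4 kb that overlaps the lower-coordinate end of Vax2. No Vax paralog difference in what was kept could arise, since the share was 0 at both. Among all genes with a control peak in the window, 2280 of 4635 had a share of 0.

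**Figure D2:**
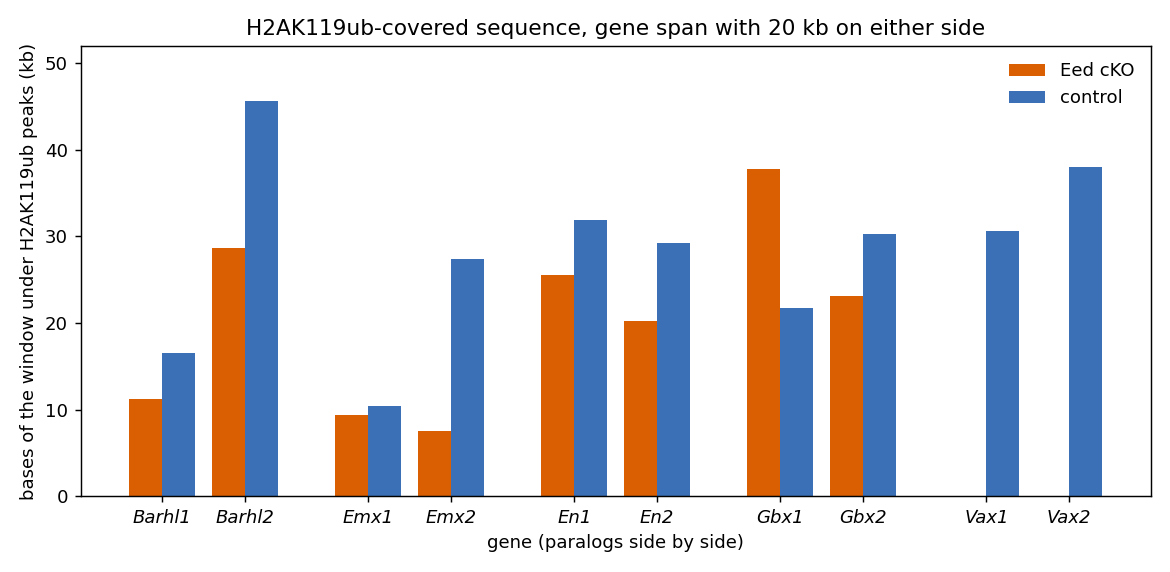
Length of the window (kb) under H2AK119ub peaks for each gene, Eed cKO in orange and control in blue, with the paralogs of a pair side by side. Each bar is 1 peak list, so there are no error bars. Gbx1 is the member with the taller orange bar (37.8 against 21.7 kb), and Vax1 and Vax2 have no orange bar.

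Vax1 and Emx2 are neighbours on chromosome 19, with 288 kb and the genes Kcnk18, Pdzd8 and Slc18a2 between them. The Eed cKO peak nearest to Vax1 was the one beside Emx2. Emx1 and Vax2 lie 1.45 Mb apart on chromosome 6, with 10 protein-coding genes between them. On both chromosomes the Emx gene thus had an Eed cKO peak in its window and the Vax gene did not. En2 and Gbx1 lie 3.64 Mb apart on chromosome 5 and had peaks in both lists. No peak was shared by 2 members.

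The following promoters show the letters at gene starts that differed in coverage. Those of Emx1 and En1 lay under a peak in both lists, and those of Emx2 and Vax1 under a control peak alone. Each is the 250 bases before the start in RefSeq's GRCm38.p6 table (the mm10 assembly), written 5′ to 3′ on the strand of the gene, with CG dinucleotides in capitals. Emx1 is chr6:85187681-85187930 (+), En1 is chr1:120602237-120602486 (+), Emx2 is chr19:59458440-59458689 (+) and Vax1 is chr19:59170398-59170647 (-).
Emx1: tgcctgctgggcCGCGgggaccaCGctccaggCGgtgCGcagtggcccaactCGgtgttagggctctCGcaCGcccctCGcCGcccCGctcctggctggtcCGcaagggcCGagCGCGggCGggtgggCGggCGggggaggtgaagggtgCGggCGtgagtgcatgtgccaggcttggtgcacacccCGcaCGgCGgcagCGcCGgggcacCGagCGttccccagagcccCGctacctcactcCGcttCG
En1: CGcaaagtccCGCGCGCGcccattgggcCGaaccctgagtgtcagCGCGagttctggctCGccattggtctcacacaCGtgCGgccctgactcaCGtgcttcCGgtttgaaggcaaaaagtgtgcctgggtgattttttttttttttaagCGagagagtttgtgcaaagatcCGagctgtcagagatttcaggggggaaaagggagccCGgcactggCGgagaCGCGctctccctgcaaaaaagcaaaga
Emx2: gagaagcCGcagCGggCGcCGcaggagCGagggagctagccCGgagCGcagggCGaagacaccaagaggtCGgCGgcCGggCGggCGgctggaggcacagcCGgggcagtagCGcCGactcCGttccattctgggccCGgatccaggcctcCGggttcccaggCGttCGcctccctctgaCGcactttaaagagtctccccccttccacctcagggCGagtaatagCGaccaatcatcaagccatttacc
Vax1: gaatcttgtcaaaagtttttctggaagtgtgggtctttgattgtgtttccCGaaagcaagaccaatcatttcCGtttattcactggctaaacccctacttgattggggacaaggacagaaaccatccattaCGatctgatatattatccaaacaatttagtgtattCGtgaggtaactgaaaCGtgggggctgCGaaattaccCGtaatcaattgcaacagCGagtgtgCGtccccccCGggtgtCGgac

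CG dinucleotides, which cluster at the starts of many developmental genes, numbered 30 in the Emx1 sequence, 19 in that of En1, 24 in that of Emx2 and 11 in that of Vax1. The motif reads the same on both strands. At least 1 CG occurred in 93.4% of 21263 promoters of protein-coding genes, with a median of 10 and quartiles of 3 and 19. Promoters under peaks of both lists had a median of 16, those under a control peak alone 14, and those under no peak 9. Barhl2 had 36 and Gbx2 18, and the 2 starts of Barhl1 had 7 and 12. Emx2, not covered at its start in Eed cKO, thus had more CG than En1, Gbx2 and Barhl1, which were covered there. The count did not separate covered from uncovered starts among the 8 member entries, of which only those of Emx2 and Vax1 were uncovered.

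In all, 7 members had 8 entries in the promoter table, and En2, Gbx1 and Vax2 are named only. Eed cKO peaks overlapped 6 of these 8 promoters (base 250 before to 50 after the start), against 3.83% of all promoters. Control peaks overlapped 8 of 8, against 6.63% of all.

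**Figure D3:**
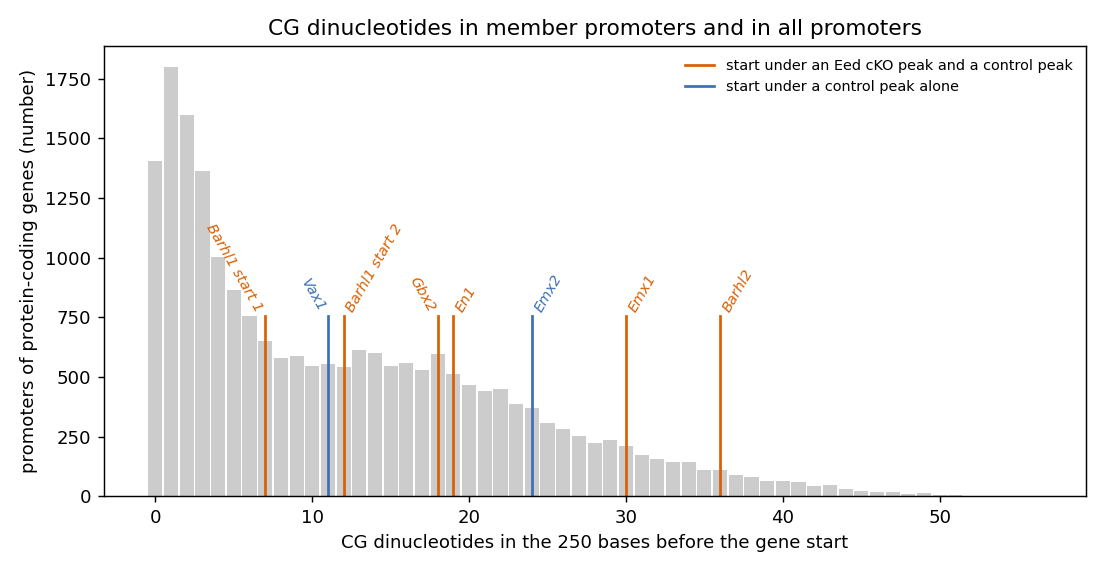
Number of CG dinucleotides in the 250 bases before the gene start, for all 21263 promoters of protein-coding genes (grey histogram) and for the member promoters (vertical lines, whose height has no meaning). Orange lines are starts under an Eed cKO and a control peak, and blue lines, Emx2 at 24 and Vax1 at 11, are starts under a control peak alone.

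The peaks of the 10 genes had shared traits of shape. Of the 13 Eed cKO peaks, 12 met a control peak, against 70.1% of all Eed cKO peaks, and 10 lay wholly inside a control peak (76.9%), against 21.7% of all Eed cKO peaks. The 3 others were at Gbx1. Control peaks were at least 10 kb wide in 11 of 13 cases, against 14.0% of all control peaks, and a wide peak holds others more easily. Of the 9 control peaks at members that met an Eed cKO peak, 3 met at least 2, at En2, Gbx1 and Gbx2. This compares with 6.00% of all control peaks of any width that met one, and a wide peak can meet several more easily. At Gbx2 the Eed cKO peaks lay 0.997 kb apart, so merging within 1000 bp joins them. An Eed cKO peak touched the span itself at 7 of 10 genes, against 7.81% of all genes, and a control peak at 10 of 10, against 12.2%. Peaks covered the whole span at 3 of 10 genes in Eed cKO, against 1.01% of all genes, and at 7 of 10 in control, against 1.60%. Member spans ran from 3.21 kb at Gbx2 to 27.1 kb at Vax2, and a short span is covered in full more easily. Span lengths were not compared with those of other genes.

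Across the 10 windows, 164 kb was covered in Eed cKO, against 282 kb in control, and 50.9% of the control-covered bases were also covered in Eed cKO. Without the Vax pair this share was 67.3%. Over all control peaks in the genome it was 36.8%. Per gene, the median share was 68.6% over the 10 members, against 11.4% over all 4635 genes with a control peak in the window. At least 50% was kept at 7 of 10 members, against 38.6% of these genes. Of control peaks, 9 of 13 at the members (69.2%) met an Eed cKO peak, against 37.9% of all control peaks. Among control peaks of at least 10 kb, 8 of 11 at the members met one (72.7%), close to the 66.4% of all 646 control peaks of that width.

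**Figure D4:**
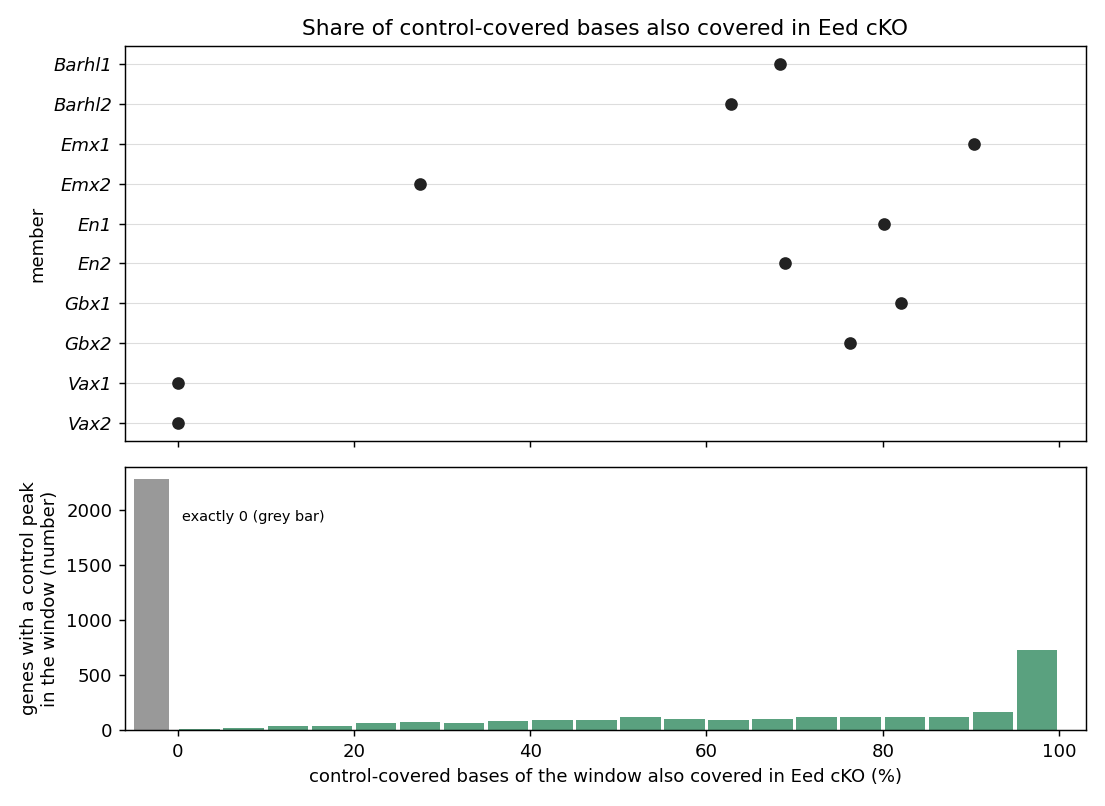
Share of the control-covered bases of the window that was also covered in Eed cKO (%). The upper panel shows each member, 1 point per gene, from 0% at Vax1 and Vax2 to 90.4% at Emx1. The lower panel counts all 4635 genes with a control peak in their window in steps of 5 points, with the 2280 genes at exactly 0 in the grey bar.

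Members ranked high in control cover. From 75.3% (Emx1) to 99.2% (Barhl2) of the genes with a control peak had fewer control-covered bases in their window. Median control cover was 29.8 kb over the members, against 5.70 kb over all genes with a control peak. It was 22.2 kb over other homeobox genes outside the Hox clusters with a control peak, so much of this rank is shared with that class. In Eed cKO, 17 genes of the genome had more covered bases in their window than Gbx1, and 68 had more than Barhl2. These ranks compare windows of unequal length, 62.4 kb at Gbx1 and 45.6 kb at Barhl2. Part of the cover in the Gbx1 window lay at Agap3, Asb10 and Iqca1l. The window edge decided a few small values. The small Gbx1 control peak overlapped its window by 0.166 kb, and between 20 and 50 kb from the spans lay 3 further Eed cKO peaks and 5 further control peaks, of which 1 control peak met an Eed cKO peak. One of these 5 was a 16.4 kb control peak at Cnpy1, a gene beside En2 that is known for FGF signalling in zebrafish midbrain, and it met no Eed cKO peak.

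Other regulators of brain regions were described by a list of 36 genes that code for factors and signals of the forebrain, the eye field and the midbrain-hindbrain border. An Eed cKO peak lay in the window of 26 of 36, and a control peak in that of 34 of 36. All 26 also had a control peak. The median share of control-covered bases also covered in Eed cKO was 48.7%, and at least 50% was kept at 17 of the 34. Lhx2, a cortical selector, had the most control cover of the list, with 37.2 kb in Eed cKO and 59.7 kb in control. Pax2, a midbrain-hindbrain factor, had 23.2 kb in Eed cKO and 55.4 kb in control. At Nr2f1, a factor of cortical areas, 6.53 kb was covered in Eed cKO and 48.1 kb in control. The share still covered thus differed within the list too. Pax6, an eye and cortex factor, had 25.8 kb in Eed cKO and 46.7 kb in control. Sp8, a factor of the rostral forebrain, had 0 kb in Eed cKO and 41.2 kb in control. Bmp7, a BMP ligand, and Hesx1, a pituitary and forebrain factor, had no peak in either list.

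The 8 genes with a control peak alone included Fezf1, a forebrain factor, with 32.2 kb in control. Fgf8, the signal of the midbrain-hindbrain border, had 16.5 kb in each list and a share of 97.7%. Wnt1, a signal of the same border, had 20.1 kb in Eed cKO and 24.7 kb in control. Among 93 other homeobox genes outside the Hox clusters, 78 had an Eed cKO peak in the window and 91 a control peak. Their median share was 55.1%, and 14 of the 91 had a share of 0, as both Vax genes did. At least 50% was kept at 51 of the 91 (56.0%), against 7 of 10 members.

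For each member, the gene of this homeobox list nearest in covered kb (Eed cKO and control, 2 values per gene) was looked up. Gbx2 was nearest to Nkx2-1, at a distance of 0.527 kb, En1 to Uncx at 1.11 kb, and En2 to Dlx5 at 1.29 kb. Barhl1 was nearest to Isl2 at 1.22 kb, Barhl2 to Dmbx1 at 3.09 kb, Emx1 to Nkx1-2 at 1.45 kb and Emx2 to Pdx1 at 1.34 kb. Vax1 was nearest to Nkx3-2 at 2.26 kb, which also had 0 kb in Eed cKO and 28.4 kb in control. Vax2 was nearest to Isl1 at 5.94 kb. Gbx1 stood farthest from its nearest gene, Lmx1b, at 10.9 kb, with 26.9 kb in Eed cKO and 22.6 kb in control at Lmx1b. The likeness rests on 2 lists only.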

How the data were processed

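The deposited data used here were a pair of peak lists in mm10, 1 for Eed cKO and 1 for control, with chromosome, start and end of each peak and no score, per the file headers. The submitters' processing notes name Bowtie2 2.3.3.1 and SAMtools 1.9. How peaks were called, with what threshold and inputs, and how both libraries of a genotype were combined is not stated in these sources. Starts were read as counted from 0, as in BED files, and are printed from 1. Gene spans, gene starts and promoter letters came from RefSeq for GRCm38.p6. Overlap required 1 bp. Covered kb are clipped to the window, and peak widths are not. Covered and shared bases equalled a per-base count in 2000 of 2000 simulated windows. Members and gene lists were chosen with earlier results of these data known. Named genes were the members, protein-coding genes within 2000 bp of their peaks, the 5 partners with most control cover, partners without a peak, and the nearest homeobox gene by covered kb. Fezf1, Fgf8, Wnt1, Cnpy1, Emx2os, Vax2os and the genes between Vax1 and Emx2, were chosen after their values were seen. Some results are not reported here. Alternatives were flanks of 0, 5 and 50 kb, the widest 75% of each list, a control list cut to 2541 peaks, merging within 1000 bp, stricter overlaps and 2000 bp around the gene start. Python 3.11.15 and numpy 2.4.6 were used.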

Additional observations from a re-analysis of the deposited data

How the results depend on the processing

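No paired analysis was possible because each genotype has 1 joined peak list, which also prevents leaving out a library. The number of members with a peak stayed at 10 in control under every alternative, and at 8 in Eed cKO except with the gene span alone (7, without Emx2). Control peaks at members met an Eed cKO peak in 8 of 10 cases with the span alone or 5 kb flanks and in 10 of 18 with 50 kb flanks, against 9 of 13. The share of control-covered bases kept ranged from 43.0% (50 kb flanks) to 62.9% (5 kb flanks). A change of over 1.5 times counted as a move. Paralog order depended on the window. The first paralog had more control-covered bases in 1 of 5 pairs, in 3 with the gene span alone and in 0 with 50 kb flanks. It had the higher kept share in 4 pairs, and in 2 with the span alone or with 5 kb flanks. With the span alone, paralog 1 minus paralog 2 turned in control to 4.66 kb (Barhl), 1.68 kb (Emx), -0.99 kb (En) and 4.34 kb (Gbx), in Eed cKO to 3.65 kb (Barhl), and in kept share to -9.76 points (Barhl) and -2.84 points (Gbx). In control the spans of both Barhl and both En genes were wholly covered, so their control differences with the span alone are differences in span length. The spans of Emx2 and Gbx2 were also wholly covered in control, and covered length there cannot exceed the span. The spans of Barhl2 and Gbx2 were wholly covered in both lists, so their kept share with the span alone was 100%. Their paralogs could therefore not have the higher kept share. Eed cKO cover of the Barhl2 span could likewise not exceed its 5.64 kb, against 9.30 kb covered in the Barhl1 span. No other cause of these turns was tested. With 5 kb flanks paralog 1 minus paralog 2 turned in control to 0.14 kb (Barhl) and -0.99 kb (En). Both En windows were again wholly covered in control, so the En value is the difference in span length. The Barhl2 window was also wholly covered in control, so its covered length could not be higher. In kept share, paralog 1 minus paralog 2 turned to -28.6 points (Barhl) and -1.71 points (Gbx). The Barhl2 and Gbx2 windows with 5 kb flanks lay wholly within peaks of both lists, so their kept share could not be lower. With 50 kb flanks the En difference in control turned to -29.4 kb, as more control peaks beside En2 entered. No order turned under the list settings. Keeping the widest 75% of peaks or cutting the control list left 12 control peaks at members, against 13. Neither setting changed any Barhl, Emx, En or Vax difference, so they hardly probed the paralog order. Merging peaks within 1000 bp lowered the Gbx difference in kept share to 2.45 points, against 5.75. Peak positions without scores or depth cannot show differences in signal within a peak.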
